A study of Mus musculus with 5 samples.

Results

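The genes described here make, move and sense cholesterol: 31 named genes of acetyl-CoA supply, the mevalonate and sterol arms of synthesis, the SREBP machinery, and intracellular sterol transport. They are defined by a list of gene symbols. Of the 31, 28 had a probe set that the platform annotation pairs with a single symbol, and all 28 passed the filter on low values, among 14979 genes tested. Expression of Acat2, Mbtps2 and Soat1 was not analysed here. No lipoprotein receptor is among the 31, so uptake is described from a further list. The study asked which genes depend on Grhl2, a Grainyhead-like transcription factor of epithelia, in MLE-15 cells. These mouse lung epithelial cells were derived from tumours driven by a transgene, the SV40 large tumour antigen under a human surfactant protein C (SP-C) promoter, and every culture carries it. The first group was 3 cultures transduced with a GFP-marked lentivirus carrying 1 Grhl2 shRNA, and the second was 2 cultures with the same vector carrying a non-silencing shRNA. In both groups infection lasted 16 h (multiplicity of infection 50), and puromycin selection lasted 6 days. Polybrene and puromycin were each used at 5 µg/ml in every culture. Each culture was a separate transduction of the same line, which was the replicate, and each gave 1 array of total RNA.

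Cholesterol is built from acetyl-CoA by way of mevalonate, which also feeds isoprenoids used for protein prenylation, dolichol and ubiquinone. Synthesis is set by a feedback loop in the endoplasmic reticulum. When sterols are low, SCAP escorts the membrane-bound factor SREBP2 to the Golgi, where the site proteases release its transcription factor domain, and INSIG proteins hold the complex back when sterols are high. Sterol taken up in lipoproteins leaves the lysosome through NPC2 and NPC1, and in lung the type II epithelial cell uses cholesterol as a component of surfactant.

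Values are the authors' log2 expression values, and a difference is the shRNA mean minus the control mean. A gene passed the threshold, and is said to have risen or fallen, when limma's Benjamini-Hochberg adjusted p over all genes tested was under 0.05. Grhl2 itself had log2 values of 7.43, 7.43 and 7.60 on the shRNA arrays, against 7.77 and 7.68 on the control arrays, a log2 fold change of −0.24 (limma adjusted p = 0.082). The signal of the targeted gene was thus 85.0% of control and missed the threshold. Grhl2 passed with a filter at the 50th percentile (limma adjusted p = 0.032) and with a trended robust prior (limma adjusted p = 0.023). It also passed without shRNA replicate 3 (limma adjusted p = 0.047), and missed the 0.05 threshold in every other alternative fit. Level also depends on each probe set's affinity. The type II markers Sftpb and Nkx2-1 were in the top 10% of single-symbol probe sets by level. So were the epithelial Epcam, Cdh1, Krt8, Krt18 and Krt19, and the alveolar type I markers Ager and Aqp5. The other type II markers past the filter lay between percentiles 56.1 (Sftpc) and 85.7 (Etv5), and Lamp3 and Slc34a2 lay below the filter. Cldn4 and Grhl2, and the type I markers Hopx, Pdpn and Cav1, were also outside the top 10%. Of 8 type II markers past the filter, Etv5 rose by 0.43, Napsa rose by 0.36 and Sftpd fell by 0.33, and the summed linear signal of the list was 7176 to 7589 on shRNA arrays against 7109 to 7229 on control arrays. Of 7 epithelial markers, Cldn4 fell by 0.42, with the sum at 14061 to 14600 on shRNA arrays against 14793 to 14904 on control arrays. Of 5 alveolar type I markers, Ager, the brightest, fell by 0.50 and 4 did not pass, with the sum at 2760 to 2920 on shRNA arrays against 3395 to 3528 on control arrays. Those 4 had log2 fold changes of −0.15 to 0.01, and the sum without Ager was not computed. Of 5 fibroblast markers, Dcn (decorin) rose by 0.70, with the sum at 418 to 501 on shRNA arrays against 366 to 378 on control arrays. The other 4 did not pass, at log2 fold changes of −0.07 to −0.0002, and without Dcn the sum was 202 to 216 on shRNA arrays against 213 to 214 on control arrays. Of 3 immune markers past the filter, Tyrobp rose by 0.28, with the sum at 127 to 133 on shRNA arrays against 126 to 131 on control arrays. None of the 3 endothelial markers past the filter passed the threshold, and their sum was 70.0 to 73.5 on shRNA arrays against 72.0 to 76.1 on control arrays. Whether these markers bear on the sterol genes was not tested.

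Of the 28 genes, 9 fell after transduction with the Grhl2 shRNA, 1 rose and 18 did not pass. Over all genes tested, 3.52% fell and 2.86% rose. In RNA from whole cultures, a change in the share of cells and a change in RNA per cell cannot be told apart. The 9 that fell were Acss2, Hmgcs1, Fdps, Tm7sf2, Nsdhl, Ebp, Dhcr7, Srebf2 and Stard4, whose shRNA signal was 72.9 to 86.2% of control. Npc1 was the gene that rose, to 134% of control. No gene of the set fell by as much as 1.5-fold. A log2 fold change below 0 was seen in 23 of the 28 genes, against 49.1% of all genes. The median log2 fold change was −0.19 over the 28 genes and 0.002 over all genes. In 18 of the 28 genes every shRNA array lay below both control arrays, against 20.5% of all genes, and in 3 every shRNA array lay above, against 21.0%. These counts describe the set, and earlier results of these data were known when it was chosen.

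**Figure D1:**
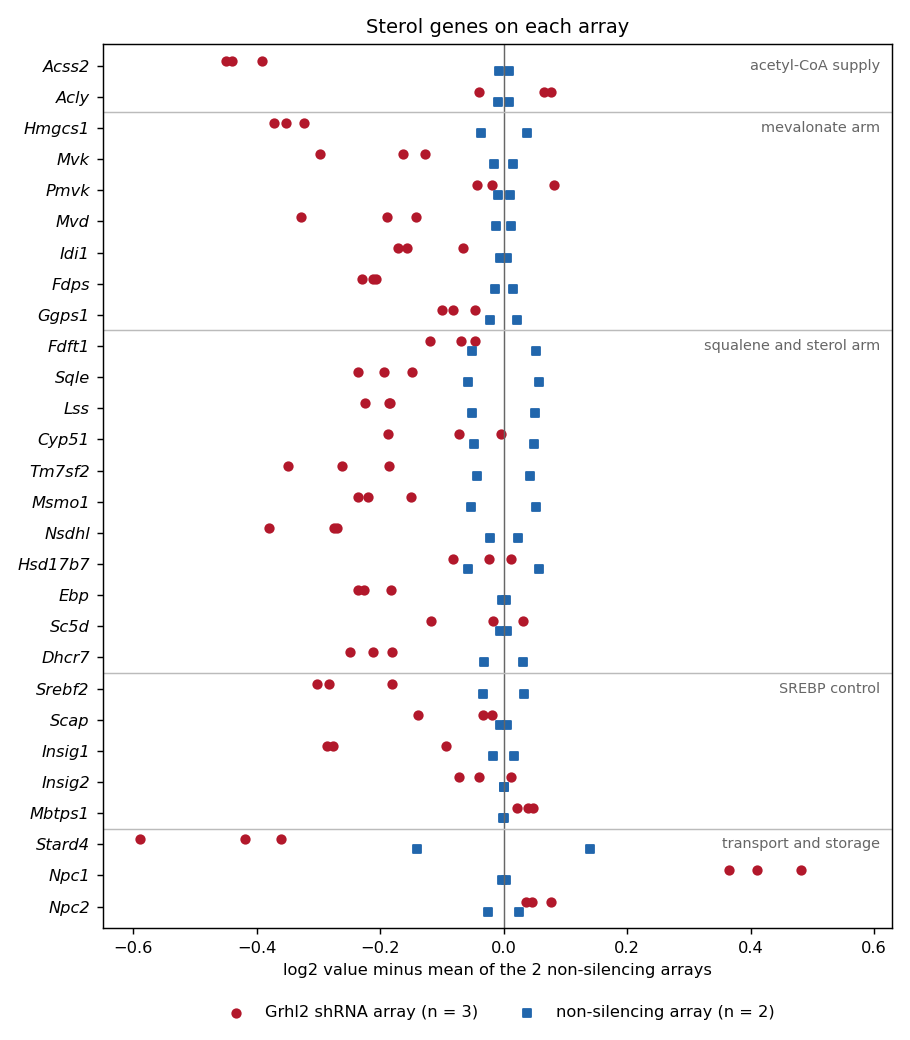
Each row is 1 of the 28 sterol genes and each point is 1 array, plotted as its log2 value minus the mean of the 2 non-silencing arrays for that gene; red circles are the 3 Grhl2 shRNA arrays and blue squares the 2 non-silencing arrays. In 18 genes all red circles lie left of both blue squares, and Npc1 stands apart on the right.

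Promoters are shown for 4 genes that fell, in different branches of the set, and for Mbtps1, which did not pass. They are RefSeq windows of assembly GRCm38.p6 that run from 250 bases before to 50 bases after the annotated start, written 5′ to 3′ on the gene's strand. Capitals mark matches, on either strand, to TCACNCCAC (a sterol regulatory element), CCAAT (the NF-Y box), GGGCGG (an Sp1 box) and AACCNGTT (a Grainyhead-like site). NF-Y and Sp1 are known partners of SREBP proteins at sterol-regulated promoters.
Hmgcs1 (chr13:119690101-119690400, plus strand): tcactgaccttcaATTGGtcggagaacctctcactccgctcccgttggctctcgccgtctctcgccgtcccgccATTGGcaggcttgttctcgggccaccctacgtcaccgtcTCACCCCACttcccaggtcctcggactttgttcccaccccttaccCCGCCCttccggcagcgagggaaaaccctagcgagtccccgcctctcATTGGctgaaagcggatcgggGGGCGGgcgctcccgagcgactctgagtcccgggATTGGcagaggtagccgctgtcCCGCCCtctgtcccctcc
Srebf2 (chr15:82147019-82147318, plus strand): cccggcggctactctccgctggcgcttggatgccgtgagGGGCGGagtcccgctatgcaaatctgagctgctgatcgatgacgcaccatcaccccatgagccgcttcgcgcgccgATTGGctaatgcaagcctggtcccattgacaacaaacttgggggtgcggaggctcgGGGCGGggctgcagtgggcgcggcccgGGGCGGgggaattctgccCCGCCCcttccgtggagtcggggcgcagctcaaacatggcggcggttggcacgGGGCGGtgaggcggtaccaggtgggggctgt
Nsdhl (chrX:72918271-72918570, plus strand): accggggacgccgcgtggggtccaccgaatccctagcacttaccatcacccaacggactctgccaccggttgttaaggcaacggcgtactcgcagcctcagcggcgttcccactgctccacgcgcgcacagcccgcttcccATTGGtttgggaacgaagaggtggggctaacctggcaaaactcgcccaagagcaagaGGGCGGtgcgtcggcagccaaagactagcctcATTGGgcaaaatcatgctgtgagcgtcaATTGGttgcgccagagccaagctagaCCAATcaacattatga
Acss2 (chr2:155517793-155518092, plus strand): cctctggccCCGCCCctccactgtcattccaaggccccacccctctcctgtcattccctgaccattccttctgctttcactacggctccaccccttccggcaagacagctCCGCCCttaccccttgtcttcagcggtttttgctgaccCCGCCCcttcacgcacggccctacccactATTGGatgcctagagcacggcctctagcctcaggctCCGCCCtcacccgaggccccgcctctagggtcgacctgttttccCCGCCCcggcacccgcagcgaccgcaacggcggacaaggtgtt
Mbtps1 (chr8:119558712-119559011, minus strand): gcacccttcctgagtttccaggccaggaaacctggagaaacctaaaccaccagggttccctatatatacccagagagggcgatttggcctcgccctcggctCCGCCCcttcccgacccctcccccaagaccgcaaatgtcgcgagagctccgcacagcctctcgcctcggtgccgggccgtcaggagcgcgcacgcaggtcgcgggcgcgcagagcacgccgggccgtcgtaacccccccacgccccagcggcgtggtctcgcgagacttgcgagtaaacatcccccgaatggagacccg

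A window was used for 26 of the 31 genes, Acat2, Mbtps2 and Soat1 included, 4 of them with several windows, and a gene was counted if any window matched. Windows of Fdps, Fdft1, Sqle, Stard4 and Npc1 were not used here. The TCACNCCAC element was found in Hmgcs1 alone of the 26 genes, starting 137 bases before the start site as TCACCCCAC, against 1.5% of the 11839 tested genes with a window. Only this exact pattern was searched, so stretches that differ from it by 1 base, as in the Srebf2 and Nsdhl windows, were not counted. The other genes therefore cannot be said to lack a sterol regulatory element. CCAAT was found in 22 of the 26 genes, against 41.6% of tested genes, and GGGCGG in 23 of the 26, against 63.7%. Among the genes that fell and had a window, 7 of 7 held CCAAT and 7 of 7 held GGGCGG; among those that did not pass, both boxes were found in 14 of 16 each. The shown Mbtps1 window has a GGGCGG match and no CCAAT. AACCNGTT was in none of the 26 genes, against 2.21% of tested genes. A match describes letters in a window, and no binding was measured.

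The supply of acetyl-CoA was represented by 2 enzymes, and they differed in their calls. Acss2 (probe set 10477649), which makes acetyl-CoA from acetate in the cytosol, had log2 values of 6.71, 6.70 and 6.76 on the shRNA arrays, against 7.14 and 7.15 on the control arrays. The groups were widely separated relative to their spread. Acss2 fell by 0.43 on the log2 scale (SE 0.042, limma adjusted p = 0.0051), to 74.4% of control with a 95% confidence interval of 69.5 to 79.7%. Acly (10391146), the lyase that makes acetyl-CoA from citrate, had 9.25, 9.36 and 9.37 on the shRNA arrays, against 9.28 and 9.30 on the control arrays. Its groups overlapped, and its log2 fold change was 0.03, with a confidence interval of −0.08 to 0.15.

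In the mevalonate arm, 2 of 7 enzymes fell, none rose and 5 did not pass. Hmgcs1 (10412466), the synthase that commits acetyl-CoA units to the pathway, had 9.02, 8.97 and 8.99 on the shRNA arrays, against 9.38 and 9.30 on the control arrays. Its means were 8.99 ± 0.02 (SD, n = 3) and 9.34 ± 0.05 (SD, n = 2), so that the difference exceeded the spread in either group. Hmgcs1 fell by 0.35 (SE 0.044, limma adjusted p = 0.010), to 78.5% of control. Fdps (10499483), which makes farnesyl diphosphate at the branch point towards sterols and isoprenoids, had 9.06, 9.08 and 9.07 on the shRNA arrays, against 9.30 and 9.27 on the control arrays. The shRNA arrays hardly differed from each other. Fdps fell by 0.22 (SE 0.040, limma adjusted p = 0.029).

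The other 5 mevalonate enzymes did not pass. Mvd (10582310), the decarboxylase that forms isopentenyl diphosphate, had 7.33, 7.37 and 7.19 on the shRNA arrays, against 7.53 and 7.50 on the control arrays. Mvk (10524555), mevalonate kinase, had 7.20, 7.23 and 7.06 on the shRNA arrays, against 7.38 and 7.34 on the control arrays. Both had every shRNA array below the controls, with shRNA replicate 3 the lowest, at log2 fold changes of −0.22 for Mvd and −0.20 for Mvk (limma adjusted p = 0.084 and 0.101). Pmvk (10493548), the kinase that acts between them, had 6.98, 6.88 and 6.85 on the shRNA arrays, against 6.88 and 6.90 on the control arrays. Its groups overlapped, and its log2 fold change of 0.01 had a confidence interval of −0.11 to 0.13. Ggps1 (10407833), which makes the geranylgeranyl donor for prenylation and not sterols, was at −0.08, with a confidence interval of −0.18 to 0.02.

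Idi1, the isomerase that makes the allylic isoprene unit, had 2 probe sets that differed in size. The brighter (10403413) had 8.10, 8.12 and 8.21 on the shRNA arrays, against 8.27 and 8.28 on the control arrays, a log2 fold change of −0.13 (limma adjusted p = 0.157). The dimmer (10482762) had 7.84, 7.82 and 7.85 on the shRNA arrays, against 8.13 and 8.18 on the control arrays, a difference of −0.33. In both, every shRNA array was below the controls. With the mean of the probe sets in place of the brighter, Idi1 passed, at −0.23 (limma adjusted p = 0.030).

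In the squalene and sterol arm, 4 of 11 enzymes fell, none rose and 7 did not pass, and all 11 had a log2 fold change below 0. Of the 8 that act after the ring system is closed, 4 fell and 4 did not pass, and of the 3 before or at closure none passed, a difference that was not tested. Nsdhl (10600082), a dehydrogenase that removes methyl groups of the sterol ring with Msmo1 and Hsd17b7, had 8.45, 8.35 and 8.46 on the shRNA arrays, against 8.75 and 8.71 on the control arrays. It fell by 0.31 (SE 0.050, limma adjusted p = 0.021), to 80.8% of control. Tm7sf2 (10465342), a sterol reductase that acts after Cyp51, had 6.20, 6.27 and 6.11 on the shRNA arrays, against 6.41 and 6.50 on the control arrays. The groups did not overlap, and Tm7sf2 fell by 0.27 (SE 0.060), with a limma adjusted p of 0.048 close to the threshold. It kept the call in only 3 of 15 alternative fits. Among others, it lost the call when the arrays were normalized again by quantiles (adjusted p = 0.058) or centred on their medians (adjusted p = 0.061).

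Ebp and Dhcr7 act late in the pathway. Ebp (10603485), the sterol isomerase, had 8.36, 8.37 and 8.42 on the shRNA arrays, against 8.60 and 8.60 on the control arrays. It fell by 0.21 (SE 0.041, limma adjusted p = 0.032). Dhcr7 (10559312), the reductase that makes cholesterol from its dehydro precursor, had 8.01, 7.97 and 8.04 on the shRNA arrays, against 8.25 and 8.19 on the control arrays. It also fell by 0.21 (SE 0.045, limma adjusted p = 0.040), and in both genes the shRNA arrays lay below the controls. Sc5d (10592585), the desaturase between them, had 8.29, 8.24 and 8.14 on the shRNA arrays, against 8.26 and 8.25 on the control arrays. Its shRNA arrays lay on either side of the controls, with a log2 fold change of −0.03 and a confidence interval of −0.16 to 0.09.

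Sqle, Lss and Msmo1 fell short of the threshold, with every shRNA array below both controls. Sqle (10424349), the epoxidase that is a rate-controlling step, had 8.44, 8.39 and 8.35 on the shRNA arrays, against 8.65 and 8.53 on the control arrays (log2 fold change −0.19, limma adjusted p = 0.078). Lss (10364194), the cyclase that forms lanosterol, had 8.08, 8.08 and 8.04 on the shRNA arrays, against 8.21 and 8.32 on the control arrays (log2 fold change −0.20, limma adjusted p = 0.056). Msmo1 (10578916), the methylsterol oxidase, had 9.05, 8.98 and 8.97 on the shRNA arrays, against 9.25 and 9.15 on the control arrays (log2 fold change −0.20, limma adjusted p = 0.068). These 3 genes and Mvd had an adjusted p under 0.1. The confidence intervals of 7 of the 18 genes that did not pass lay wholly below 0. Counting genes that passed as well, 16 of the 28 intervals did so, against 1769 of the 14979 genes tested.

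The remaining enzymes of that arm had groups that overlapped. Cyp51 (10527920), the lanosterol demethylase, had 8.31, 8.12 and 8.24 on the shRNA arrays, against 8.36 and 8.26 on the control arrays, a log2 fold change of −0.09. Hsd17b7 (10359917), the ketone reductase that works with Nsdhl, was at −0.03, with a confidence interval of −0.16 to 0.09. Fdft1, squalene synthase, had 2 probe sets of nearly the same brightness. The brighter (10420730) was at −0.08 with overlapping groups, whereas the other (10412909) was at −0.16, with 9.79, 9.73 and 9.76 on the shRNA arrays below 9.88 and 9.96 on the control arrays.

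**Figure D2:**
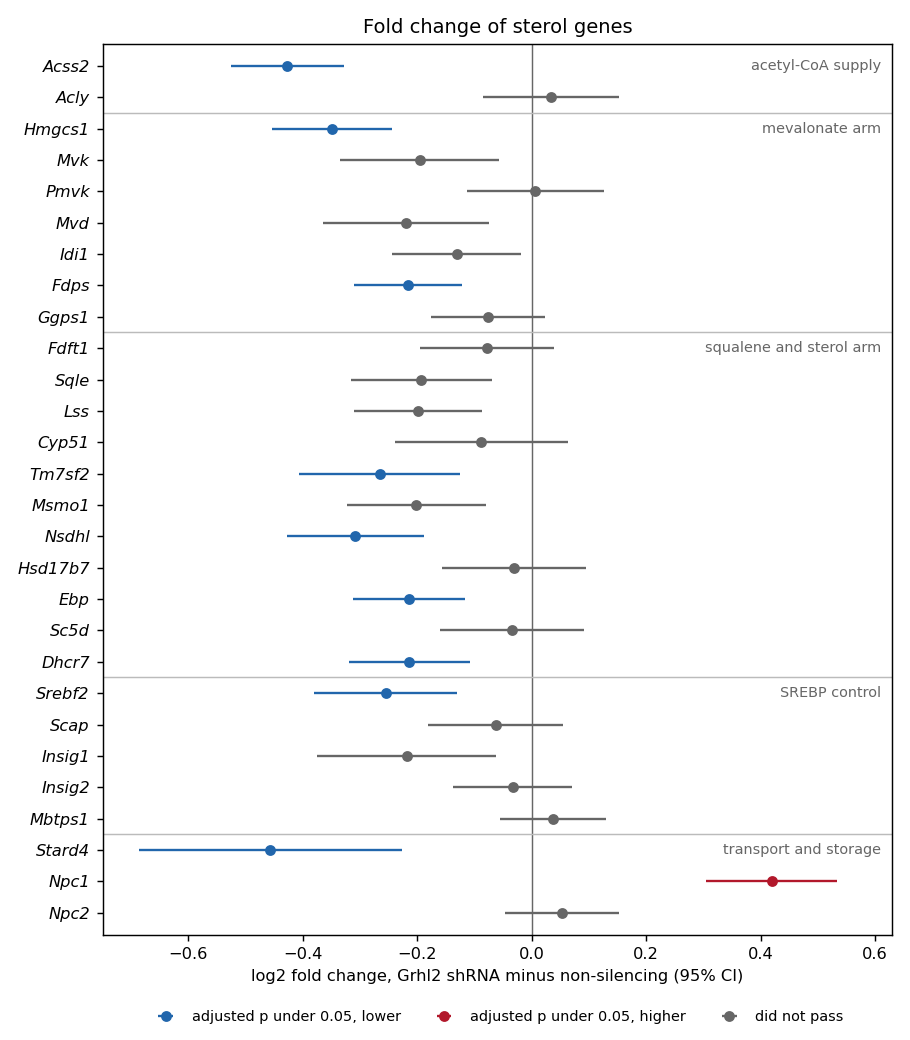
Log2 fold change (shRNA minus non-silencing) of each of the 28 sterol genes with its 95% confidence interval from limma; blue genes fell, the red gene rose and grey genes did not pass. The enzymes of both synthesis arms lie between −0.35 and 0.01, and the intervals of 7 grey genes lie wholly below 0. Over all 28 genes 16 intervals do, against 1769 of the 14979 genes tested.

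Of the 5 genes of SREBP control, Srebf2 fell and 4 did not pass. Srebf2 (10425695), which encodes SREBP2, the main activator of cholesterol synthesis genes, had 9.30, 9.20 and 9.18 on the shRNA arrays, against 9.51 and 9.45 on the control arrays. It fell by 0.26 (SE 0.053, limma adjusted p = 0.038), to 83.8% of control. Insig1 (10520362), a retention protein that is itself a target of SREBP, had 9.36, 9.17 and 9.18 on the shRNA arrays, against 9.44 and 9.47 on the control arrays. Its shRNA arrays were below the controls but spread more widely, with replicate 1 the highest, at a log2 fold change of −0.22 (limma adjusted p = 0.103). Without shRNA replicate 1 Insig1 passed, at −0.28 (limma adjusted p = 0.040).

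The rest of the control machinery differed little between groups. Insig2 (10357280), the paralog of Insig1, had 9.30, 9.38 and 9.33 on the shRNA arrays, against 9.37 and 9.37 on the control arrays, which overlapped. Its confidence interval was −0.14 to 0.07, and the difference from Insig1 was not tested. Scap (10589511), the escort protein, was at −0.06 (−0.18 to 0.06). Mbtps1 (10582094), the site-1 protease, was at 0.04 (−0.06 to 0.13), with every shRNA array marginally above the controls. Srebf1, the paralog of Srebf2 that favours fatty acid genes, was named after its value was seen and was at −0.02 (−0.14 to 0.10).

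Among the transport genes, Stard4 fell and Npc1 rose. Stard4 (10458033), a soluble carrier that moves sterol between membranes, had 7.53, 7.70 and 7.76 on the shRNA arrays, against 7.98 and 8.26 on the control arrays. The groups did not overlap, but the control arrays lay 0.28 apart, the widest control spread of the 28 genes. Stard4 fell by 0.46 (SE 0.097, limma adjusted p = 0.042), to 72.9% of control with a confidence interval of 62.1 to 85.5%. With control replicate 2, the higher, left out, its log2 fold change was −0.32 (limma adjusted p = 0.186). With control replicate 1 left out it was −0.60 (limma adjusted p = 0.061).

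Npc1 (10457508), the lysosomal membrane protein that exports cholesterol, had 8.15, 8.27 and 8.20 on the shRNA arrays, against 7.79 and 7.78 on the control arrays. All shRNA arrays stood well above the controls. It rose by 0.42 (SE 0.048, limma adjusted p = 0.0076), 1.34-fold, with a confidence interval of 1.24 to 1.45-fold. Npc2 (10401519), the soluble lysosomal protein that hands cholesterol to NPC1, had 10.23, 10.26 and 10.22 on the shRNA arrays, against 10.21 and 10.16 on the control arrays. The Npc2 arrays did not overlap, but the gap was small, and its log2 fold change of 0.05 (−0.05 to 0.15) did not pass.

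The number of calls depended on every array. With 1 array left out, the number of the 28 genes that fell was 5 without shRNA replicate 1, 2 without shRNA replicate 2, and 3 without shRNA replicate 3. Leaving out either control replicate left 1 control array, and fewer of the 28 genes fell than with any shRNA array left out. Over all genes tested, calls numbered 453, 289 and 493 without each shRNA array and 91 and 67 without control replicates 1 and 2. Acss2 kept its call without each array except control replicate 2 (limma adjusted p = 0.053). Hmgcs1 and Npc1 kept theirs when any 1 shRNA array was left out and lost them when either control array was. Nsdhl kept its call without shRNA replicates 1 and 3, and Srebf2 without shRNA replicate 1. Fdps, Tm7sf2, Ebp, Dhcr7 and Stard4 lost theirs whichever array was left out. The 10 genes that passed kept their direction in every case. That outcome was fixed in advance, because their groups did not overlap and leaving out 1 array cannot turn the sign. The median over the 28 genes of the difference from the control mean was −0.15, −0.17 and −0.18 on the 3 shRNA arrays, while over all genes it was within 0.01 of 0 on each.

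**Figure D3:**
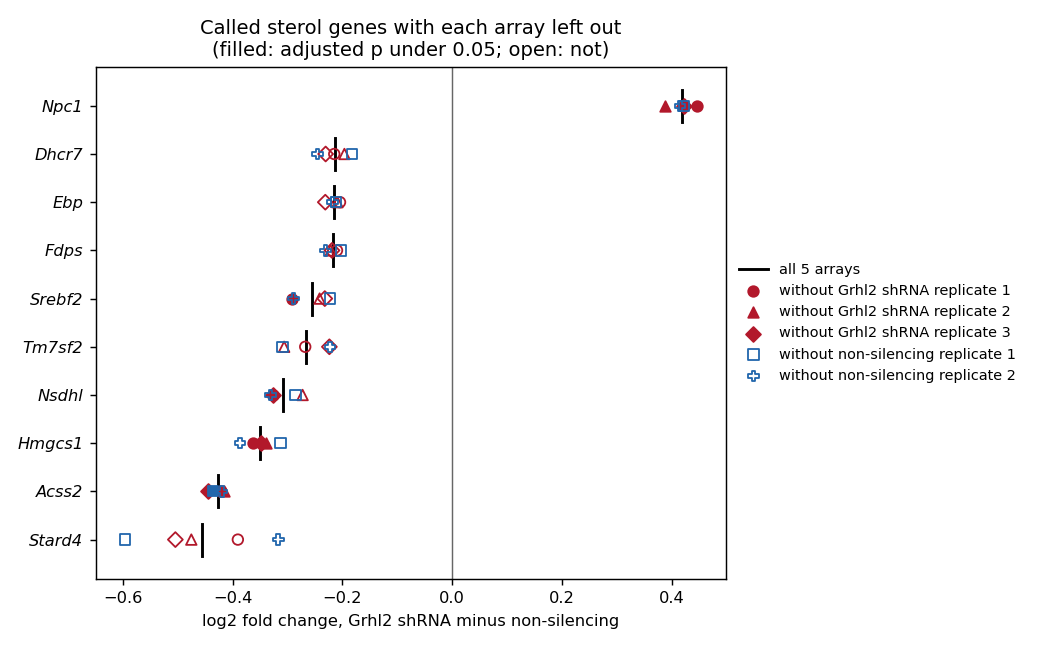
Log2 fold change (shRNA minus non-silencing) of the 10 sterol genes that passed, with all 5 arrays (black bars) and with each array left out (red, a shRNA array; blue, a non-silencing array); filled symbols have a limma adjusted p under 0.05. No symbol crosses 0, which follows from groups that did not overlap, and Stard4 moves most, between −0.60 and −0.32.

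Genes around the pathway gave 5 lower and 2 higher calls among 54 tested, of 67 listed, where 6.38% of all genes passed in either direction. Of 4 genes of lipoprotein uptake, 2 fell and 1 rose. Lrp1, a large endocytic receptor, had 8.17, 8.25 and 8.38 on the shRNA arrays, against 8.67 and 8.54 on the control arrays, and fell by 0.34 (limma adjusted p = 0.041). Lrp8, the apolipoprotein E receptor, fell by 0.23 (limma adjusted p = 0.028). Vldlr, its close relative, had 9.57, 9.68 and 9.64 on the shRNA arrays, against 9.36 and 9.35 on the control arrays, and rose by 0.27 (limma adjusted p = 0.025). For each of the 3 the groups did not overlap.

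Of 11 genes of fatty acid synthesis, the neighbouring branch under SREBP control, 3 fell, none rose and 8 did not pass, and the median log2 fold change was −0.08. Elovl6, an elongase, fell by 0.35 at a low signal of 4.39 to 4.50 on shRNA arrays and 4.78 to 4.82 on control arrays. Acacb, the acetyl-CoA carboxylase of mitochondria, fell by 0.24 and Fads2, a desaturase, by 0.19 (limma adjusted p = 0.014, 0.049 and 0.041 for Elovl6, Acacb and Fads2). Of 11 further genes of SREBP and sterol sensing, Nfyb, a subunit of NF-Y, rose by 0.24 (limma adjusted p = 0.049) and 10 did not pass. None of 10 genes of the isoprenoid branches passed. The largest difference there was 0.13, for Trit1, a tRNA prenyltransferase (limma adjusted p = 0.115). None of 7 genes of sterol efflux and the liver X receptors passed, with Mylip, which encodes a ligase that degrades lipoprotein receptors, largest at 0.19 (limma adjusted p = 0.189). Likewise none of 9 further transport and storage genes passed, with Nceh1, a cholesteryl ester hydrolase, at −0.07 (limma adjusted p = 0.508). Of 2 further sterol enzymes neither passed, and Lbr, which has sterol reductase activity and binds lamin, was at 0.13 (limma adjusted p = 0.137). Differences between these lists and the 28 genes were not tested.

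**Figure D4:**
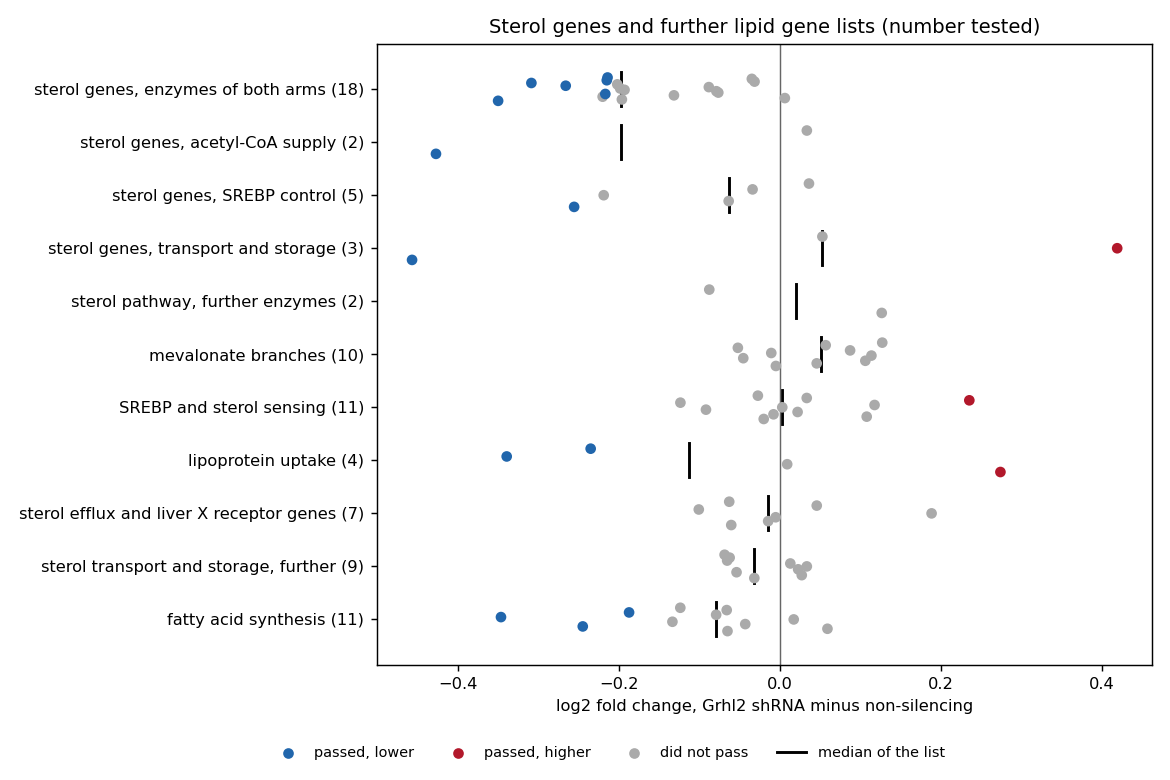
Log2 fold change (shRNA minus non-silencing) of every tested gene, for the 28 sterol genes by role and for 7 further lists, with the number tested in brackets; blue points fell, red points rose, grey points did not pass and black bars are medians. The median of the 18 enzymes of both synthesis arms is −0.20, while the medians of the further lists lie between −0.11 and 0.05.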

How the data were processed

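The deposited table holds RMA log2 values of 5 whole-transcript arrays. Per the submitters' processing notes, the authors ran Affymetrix Expression Console; its version, the annotation and the build are not stated there. RMA subtracts background, equalises quantiles across arrays and summarises the probes of each set. The log base was taken from the method and the range of values. Of 34760 probe sets, 21640 have 1 gene symbol in the platform annotation, 1321 have several and 11799 none listed there. Only single-symbol probe sets were named.

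Probe sets with a mean log2 value below 4.22, the 25th percentile, were left out, and the brightest stood for each gene. Groups were compared over all 14979 genes with lmFit and eBayes of limma 3.58.1 (R 4.3.3), two-sided, with 3 residual degrees of freedom. The number of arrays limits the precision, and the median standard error was 0.051. The test was checked on simulated data. Members, lists and motifs were chosen with earlier results of these data known. All members are named; from each further list, called genes are named, or else the largest difference. Alternatives covered filter, normalization, probe set choice, variance prior, array weights, replicate number, arrays left out and threshold. Promoters are RefSeq windows of GRCm38.p6.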

Additional observations from a re-analysis of the deposited data

How the results depend on the processing

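All 10 genes that passed kept their direction under every alternative run, which for most of the alternatives could not have come out otherwise. Another filter, variance prior or use of probe sets left their fold changes as they were. With 1 array left out, groups that did not overlap cannot change order. Of the 28 sterol genes, 9 fell and 1 rose, and 956 of all genes passed. With no filter these counts were 3, 1 and 418, with a filter at the 50th percentile instead 15, 1 and 1708, and with a trended robust prior 15, 1 and 2034. Without moderation of the variance they were 0, 0 and 9, where the per-gene linear model gave 12 lower and 2 higher sterol genes at an unadjusted p under 0.05. How many of all genes were under that unadjusted threshold was not counted for this or any other alternative. In the main limma fit, 17 of the 28 sterol genes and 3456 of all 14979 genes were under it. With adjusted p under 0.1, 1851 genes passed, and 13 sterol genes were lower. Another normalization, array weights or another use of probe sets gave 8 to 10 lower and 1 higher. With 1 array left out, 0 to 5 sterol genes were lower, 0 to 1 higher, and 67 to 493 of all genes passed; without a control array the lone control is assumed to vary like the shRNA arrays. The cause of these shifts was not tested.

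The replicate numbers 1 and 2 occur in both groups, but the labels call each transduction independent, and deviations of same-numbered arrays correlated at 0.057 and 0.019 across genes. With the number as a replicate block, 2 sterol genes were lower, Stard4 and Acss2, none higher (0, with 1 at an unadjusted p under 0.05), and 172 of all genes passed. No control array shares a number with shRNA replicate 3, so that array does not enter the comparison in this fit. Its fold changes are those found without shRNA replicate 3, and the lost calls cannot be ascribed to pairing. Signs turned only for genes near 0: Pmvk was at −0.0023 with array weights and between −0.031 and 0.031 with 1 array left out. Sc5d was at 0.0069 with the replicate block and between −0.067 and 0.0069 with 1 array left out, and Hsd17b7 between −0.088 and 0.026. Signal over background is not in the table, so absence of expression cannot be read from a low value.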
